A study of Homo sapiens with 14 samples.

Results

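GSK-J4 and BRD4770 were 2 of the 9 small molecules given to U2OS cells, an established human osteosarcoma line, and they make up 2 of the 14 RNA-seq libraries of the series. GSK-J4, a cell-permeable inhibitor of the KDM6 demethylases that remove methyl groups from H3K27, was used at 20 µM for 12 h. BRD4770, a compound directed at the EHMT (G9a) methyltransferases of H3K9, was used at 20 µM for 24 h. Each compound has 1 library, so every value below describes these libraries and no test between the compounds was possible. Because the times also differ, compound and time cannot be told apart. The pair was picked because both libraries held high levels of hypoxia-regulated genes against the solvent library in earlier results of the same data, so that likeness is a description here and supports nothing. The solvent library received DMSO at 0.5% by volume, with no time in its label. The 7 other compounds of the same table each gave 1 library. They were 2-PCPA (1 mM) and BIX-01294 (5 µM) for 12 h, and GSK343 (10 µM), rapamycin (5 µM), SAHA (1 µM), UNC1215 (50 µM) and VPA (20 µM) for 24 h. Levels are FPKM, fragments scaled to transcript length and library size, and differences are taken on log2(FPKM + 1), where 1 equals a doubling of FPKM + 1 and changes of low genes are understated. Of 28501 named rows, the 12804 that averaged 1 FPKM or more across the 10 libraries were kept. Values listed after a gene without library names are those of GSK-J4, BRD4770 and, where given, DMSO, in that order.

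Cells answer low oxygen through the hypoxia-inducible factors. In oxygen, the EGLN prolyl hydroxylases, which need iron and 2-oxoglutarate, mark HIF1A and EPAS1 (HIF-2α) for destruction by the VHL ubiquitin ligase. When hydroxylation fails, the α subunits pair with ARNT and bind short DNA elements with the core ACGTG or GCGTG near genes for glucose uptake, glycolysis, pH control, vessel growth and mitophagy. The genes for EGLN1 and EGLN3 are themselves targets, and α subunit abundance is set largely at the protein level, which RNA-seq does not measure.

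The promoters of 5 hypoxia-regulated genes that were above DMSO in both libraries are shown as examples that hold the core ACGTG. Other genes far above DMSO in both, such as CA9 and HK2, are not shown. The 5 promoters come from RefSeq on GRCh38.p14, a different build from the hg19 of the deposited values. Only the 250 bases before each start were searched, on both strands. Capitals mark ACGTG or its reverse complement. Where CACGTG is in capitals, it holds the core on both strands and counts as 2 matches. These letters are also those of the E box, a separate motif. ANKRD37 encodes an ankyrin repeat protein, BNIP3 a mitophagy receptor, ALDOC the aldolase C enzyme, LDHA the lactate dehydrogenase A subunit and FAM162A a mitochondrial protein. The stretches lie at chr4:185396667-185396714 (plus strand, ANKRD37), chr10:131982040-131982069 (minus, BNIP3), chr17:28576916-28577145 (minus, ALDOC), chr11:18394366-18394506 (plus, LDHA) and chr3:122384086-122384114 (plus, FAM162A).
ANKRD37: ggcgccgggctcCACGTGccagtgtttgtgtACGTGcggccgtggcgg
BNIP3: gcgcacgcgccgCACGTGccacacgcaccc
ALDOC: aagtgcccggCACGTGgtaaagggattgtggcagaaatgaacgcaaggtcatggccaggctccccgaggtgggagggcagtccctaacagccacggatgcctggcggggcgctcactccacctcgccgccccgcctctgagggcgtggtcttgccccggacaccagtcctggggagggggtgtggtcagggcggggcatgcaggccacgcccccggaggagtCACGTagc
LDHA: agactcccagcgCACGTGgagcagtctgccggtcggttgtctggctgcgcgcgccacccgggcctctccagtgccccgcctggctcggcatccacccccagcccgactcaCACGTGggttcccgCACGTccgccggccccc
FAM162A: cagcgcgtggcgCACGTcctacacgcccc
Of kept genes with a promoter matched by symbol, ACGTG was present in 19 of 28 (67.9%) on the HIF target list and in 16 of 23 (69.6%) on the glycolysis list. It was present in 21.7% of all 27305 promoters of the table and in 29.5% of the 9691 whose genes were kept. The alternative core GCGTG was in 67.9% of the HIF target promoters, 60.9% of the glycolysis promoters and 54.4% of those of kept genes. CACGTG was in 10 of 28 (35.7%), in 6 of 23 (26.1%) and in 11.5%, in the same order. These matches describe letters in a window and name no bound site. The promoters of VEGFA, NDRG1, BNIP3L, HILPDA, ZNF395, RAB20 and SLC2A3 were not used here.

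A second set of promoters is shown for genes that separated the compounds. For MT1X (chr16:56682308-56682435, plus strand) and MT2A (chr16:56608334-56608563, plus strand), which encode metallothioneins, the zinc and copper binding proteins, capitals mark TGCACNC or TGCGCNC on either strand, the core of the element bound by the metal sensor MTF1. For TXNIP (chr1:145996639-145996679, minus strand), whose protein restrains glucose uptake, capitals mark CACGAG, part of its carbohydrate response elements.
MT1X: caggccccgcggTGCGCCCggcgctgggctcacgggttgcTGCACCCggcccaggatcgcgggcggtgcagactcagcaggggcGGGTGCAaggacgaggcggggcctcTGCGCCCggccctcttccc
MT2A: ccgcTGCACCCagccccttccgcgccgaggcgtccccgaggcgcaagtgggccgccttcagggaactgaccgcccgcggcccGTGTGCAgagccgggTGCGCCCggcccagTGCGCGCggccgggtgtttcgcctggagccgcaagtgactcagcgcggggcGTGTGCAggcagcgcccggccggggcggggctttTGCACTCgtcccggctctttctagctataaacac
TXNIP: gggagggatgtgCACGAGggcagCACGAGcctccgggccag
The MT1X window held 4 matches and the MT2A window 7, of which 6 lie in the stretch shown. The metal element core was present in 5 of 6 matched promoters of kept genes on the metallothionein and zinc list. It was present in 28.5% of all promoters and in 41.0% of those of kept genes. The promoters of MT1E and MT1G were not matched. MT1B and MT1H, which are among the 6, were kept only through their GSK-J4 values, so nothing is read from this share. CACGAG was present in 6.77% of all promoters and in 9.32% of those of kept genes.

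The FPKM values hold no counts, so absolute depth is unknown. Ratios of low values put the depth of the GSK-J4 library at 0.66 and that of the BRD4770 library at 0.801 relative to DMSO, within a range of 0.559 to 1.248 over the 10 libraries. Genes at or above 1 FPKM numbered 12657 and 12585, within a range of 12045 to 12802. The 2-PCPA library stood apart, with 28% of 375 olfactory receptor genes above 0 against 2.67% in GSK-J4, 3.20% in BRD4770 and 2.40% to 6.40% in the others. The blood markers PTPRC, CD3E, CD14, HBB and SPI1 were listed at 0 in both libraries, and none of 4 endothelial markers reached 1 FPKM. Mesenchymal VIM was at 682 FPKM in GSK-J4 and 857 in BRD4770 and SPARC at 308 and 154. Bone markers were uneven, with COL1A2 listed at 0 in both libraries, the bone regulator RUNX2 at 1.88 FPKM in GSK-J4, 0.629 in BRD4770 and 5.27 in DMSO, and the bone phosphatase ALPL at 0.771, 4.76 and 0.256 FPKM. KRT8 and KRT18, keratins of simple epithelia, were at 283 and 272 FPKM in GSK-J4 and 271 and 193 in BRD4770. The other epithelial markers were near the floor. EPCAM was at 0.798 FPKM in GSK-J4 and 0.444 in BRD4770, CDH1 at 0.372 and 0.0750, ESRP1 at 0.141 and 1.27, and KRT19 was listed at 0 in both. The myogenic factor MYOD1 was at 7.31 FPKM in GSK-J4 and 6.92 in BRD4770 and listed at 0 in DMSO. The other muscle markers did not follow, with MYOG and ACTA1 listed at 0 in both libraries and DES at 1.19 FPKM in GSK-J4 and 0 in BRD4770. In bulk RNA, a change in RNA per cell and a change in the share of cells cannot be told apart.

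A yardstick for 1-library differences came from GSK343 minus rapamycin, which was available in both replicate tables with no library in common. Over 12058 genes, that difference changed between replicates by a median of 0.25 and by up to 0.96 for 95% of genes. Of 540 genes past 1 in replicate 1, 68 (12.6%) were past 1 in the same direction in replicate 2, and 393 (72.8%) had the same sign. For genes averaging 10 FPKM or more the 95% bound was 0.73, and 39 of 165 genes (23.6%) were again past 1. A difference near 1 between 2 single libraries was therefore of the size by which such differences varied between replicates, and GSK-J4 and BRD4770 themselves have no replicate. The labels do not say whether the replicates were separate cultures.

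Among genes with at least 5 FPKM in the higher library, clone and small RNA rows aside, GSK-J4 exceeded BRD4770 most in metallothionein genes and HMOX1. BRD4770 exceeded GSK-J4 most in PI3, TXNIP and HIST1H2BJ. The hypoxia-regulated genes were high in both. Within the pair their list medians were 0.27 (HIF targets) and 0.33 (glycolysis), both inside the quartiles of all genes given below. With BIX-01294 alone as the 12 h reference these medians were 0.14 and 0.030. Of 12804 genes, 601 (4.69%) were higher in GSK-J4 by at least 1 and 475 (3.71%) were lower by at least 1, and 52.4% were above 0. These shares are the background for all list counts within the pair given below. Of the genes counted, 43 of the higher passed the level filter only through GSK-J4 and 33 of the lower only through BRD4770. The median difference was 0.03, the quartiles were -0.29 and 0.37, and 95% of genes lay between -1.15 and 1.26. Among genes with at least 10 FPKM in the higher library, 6.91% of 6945 were past 1 (282 higher, 198 lower), against 10.2% of 5859 lower genes and 21.2% of 1034 clone, small RNA and read-through rows. When each compound was first set against the other treated libraries of its own time, 1643 genes were higher and 547 lower. With BIX-01294 alone as the 12 h reference the counts were 1568 and 1562, and with 2-PCPA alone 2542 and 316. The split of the direct comparison thus moved with the 12 h library used as reference. The correlation of the pair over the kept genes was 0.928, the 16th highest of 45 pairs of libraries, which share one table and one normalization.

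**Figure D1:**
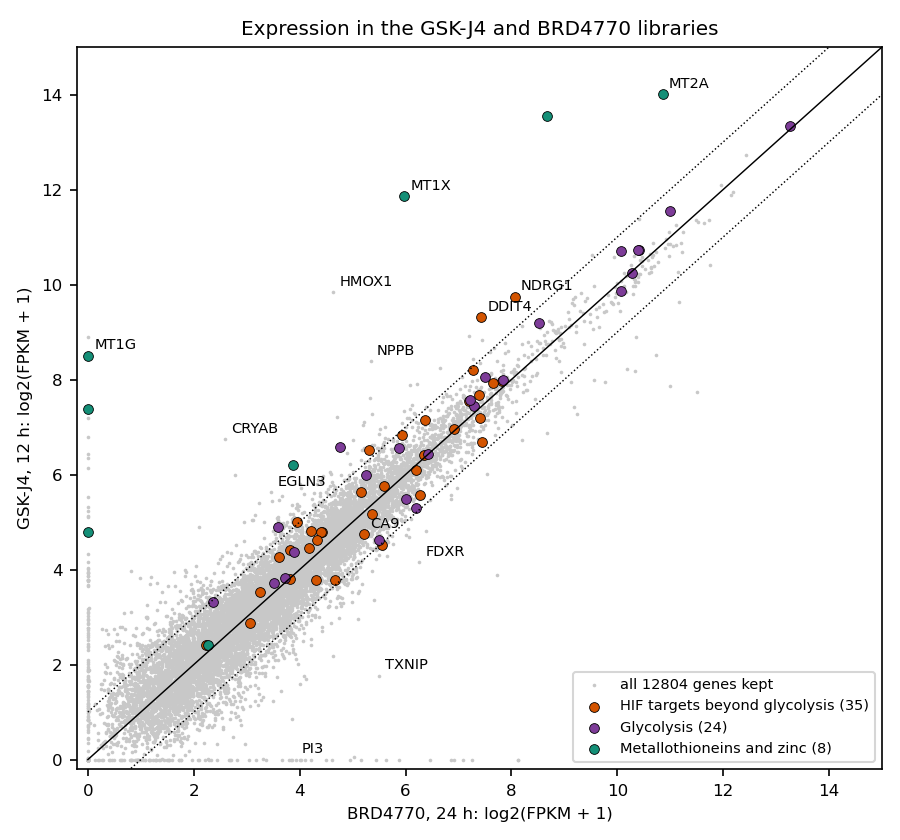
Each point is 1 of 12804 genes, with log2(FPKM + 1) in the BRD4770 library (24 h) on the x axis and in the GSK-J4 library (12 h) on the y axis; the solid line marks equal levels and the dotted lines a difference of 1 in either direction. Most HIF targets (orange) and glycolysis genes (purple) lie between the dotted lines, with NDRG1 and DDIT4 among those above them. Green points are the metallothioneins, the zinc transporter SLC30A1 and MTF1, which lies near the solid line. The metallothioneins and HMOX1 lie far above the solid line, and TXNIP and FDXR lie below it.

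Genes at the edges of these rules were AK093551, with a mean of 1.00 FPKM, and DQ580909, with 0.999, which was left out. ALOXE3 differed by 1.00 and was counted as higher, at 6.49 FPKM in GSK-J4 and 2.74 in BRD4770, and KLK6, at 9.23 and 4.12, lay just inside 1 and was not counted. ANKRD36BP1 was counted as lower, at 2.45 FPKM in GSK-J4 and 5.92 in BRD4770, and GAMT, at 11.2 and 23.3, was not.

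The HIF target list (38 genes beyond glycolysis, 35 kept) was high in both libraries. Against the same DMSO library, 32 of 35 were higher by at least 1 in GSK-J4 and 29 of 35 in BRD4770, with medians of 2.29 and 2.02. Over all genes, 8.92% were higher by at least 1 in GSK-J4 and 5.94% in BRD4770, with medians of 0.00 and -0.01. Both comparisons use the same DMSO library, and the pair was chosen for this pattern, so nothing is read from these counts. For 26 of the 35 genes, GSK-J4 and BRD4770 were the 2 highest of the 10 libraries, which held for 912 of all genes (7.12%). Without the 2-PCPA library the 26 were again 26, and the count over all genes was 926 (7.23%). These counts too belong to the pattern for which the pair was chosen, and nothing is read from them. Below the level filter were ANGPTL4 (1.51 FPKM in GSK-J4, listed at 0 in BRD4770), STC2 (1.65 and 0.647) and CXCR4 (listed at 0 in both).

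CA9, the membrane carbonic anhydrase widely used as a marker of hypoxic tumour cells, was at 25.9 FPKM in GSK-J4 and 36.1 in BRD4770, against 0.609 in DMSO and 0 to 0.243 in the 7 other compounds. BNIP3 was at 248 FPKM in GSK-J4 and 226 in BRD4770, against 19.01 in DMSO and 12.4 to 31.5 in the other compounds. For both genes the pair lay apart from the 8 other libraries, and GSK-J4 minus BRD4770 was -0.47 for CA9 and 0.14 for BNIP3, inside the range that held 95% of all genes. BNIP3L, a second mitophagy receptor, was at 241 and 201 FPKM against 37.1 in DMSO. VEGFA, the main growth factor for blood vessels, was at 113 FPKM in GSK-J4, 59.9 in BRD4770 and 13.99 in DMSO, and the next highest library was BIX-01294 at 38.3. Of the prolyl hydroxylases of collagen, P4HA2 followed the same order at 185, 147 and 36.1 FPKM, while P4HA1 was slightly higher in BRD4770 (144, 168 and 22.4). The lysyl hydroxylase PLOD2 was at 204, 167 and 37.7 FPKM. KDM3A, a hypoxia-regulated H3K9 demethylase, was at 26.7, 20.5 and 5.69 FPKM and no higher than 11.9 in the other compounds.

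**Figure D2:**
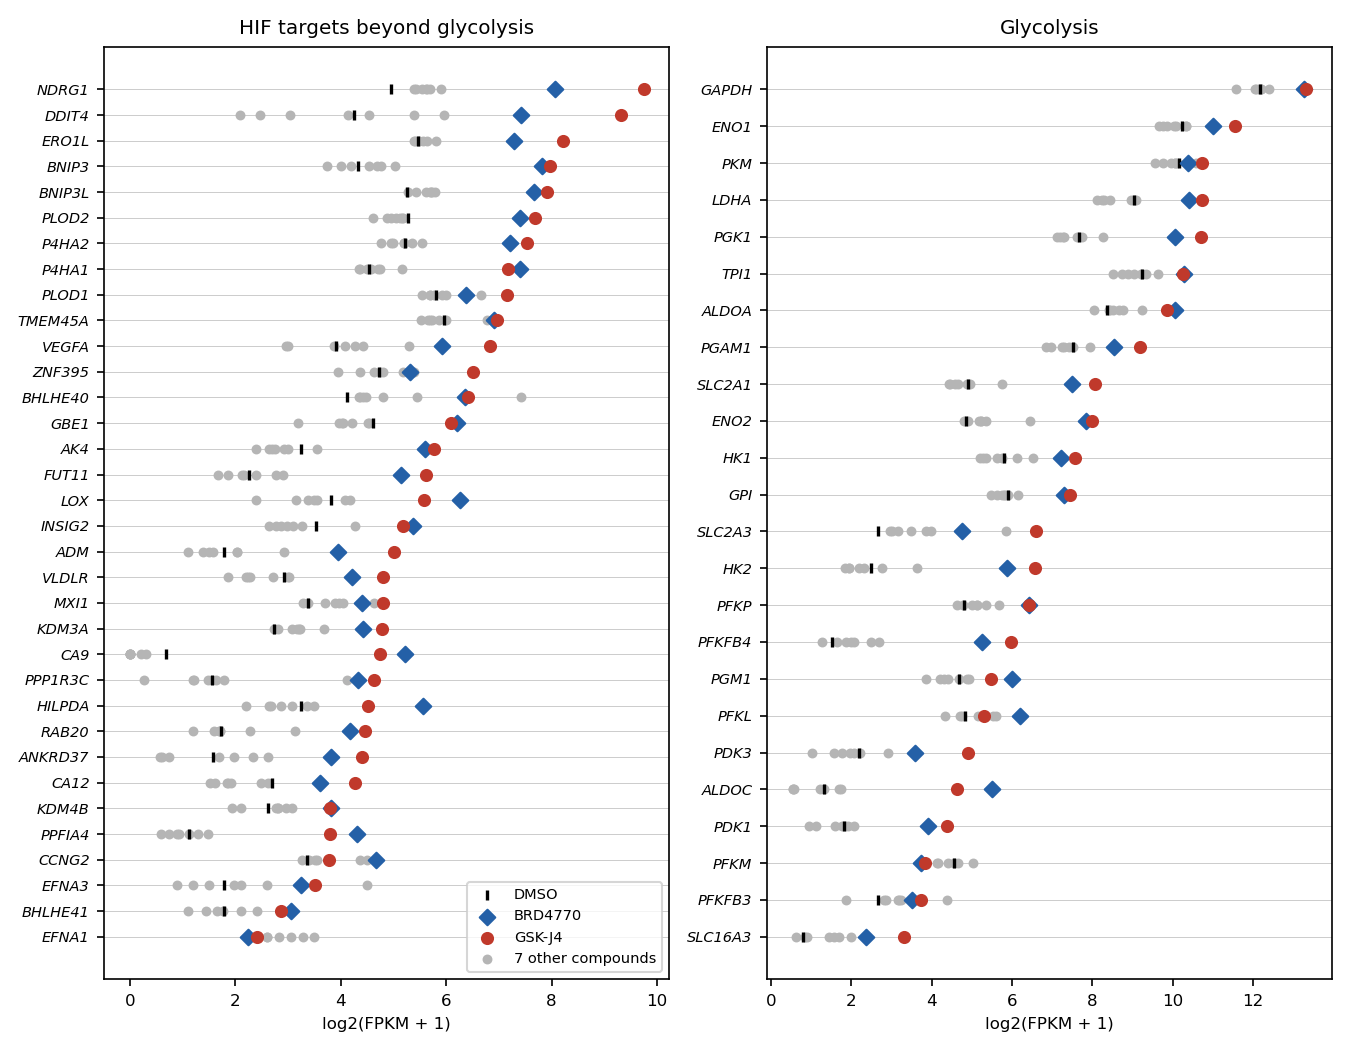
Levels as log2(FPKM + 1) on the x axis for 34 of the 35 HIF targets kept (left, with 1 not reported here) and the 24 glycolysis genes (right), 1 gene per line, with GSK-J4 as red circles, BRD4770 as blue diamonds, DMSO as black ticks and the 7 other compounds as grey dots, 1 library each. In most lines the red and blue points lie together to the right of all others; EFNA1 and PFKM are among those that do not show this.

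Between the 2 libraries, 24 of 35 HIF targets were higher in GSK-J4 and 11 lower, with a median of 0.27 against 0.03 over all genes. Past 1, 4 were higher in GSK-J4 and 1 was lower, against 4.69% and 3.71% of all genes. DDIT4, an inhibitor of the mTORC1 kinase that is also a target of ATF4, was at 639 FPKM in GSK-J4, 171 in BRD4770, 18.1 in DMSO and 3.25 to 61.1 in the 7 others, a difference of 1.89 between the pair. NDRG1, a stress-responsive gene strongly induced by hypoxia and iron depletion, was at 857 FPKM in GSK-J4, 267 in BRD4770, 30.1 in DMSO and 41.2 to 59.1 in the others, a difference of 1.68. In both genes GSK-J4 stood above BRD4770, and BRD4770 in turn above every other library. ZNF395, a zinc finger factor, was at 90.1 FPKM in GSK-J4 but at 38.7 in BRD4770, which lay inside the range of the other compounds (14.5 to 40.9). The vasodilator peptide gene ADM was at 31.2, 14.4 and 2.43 FPKM in GSK-J4, BRD4770 and DMSO. The gene past 1 the other way was HILPDA, a regulator of lipid droplets, at 22.1 FPKM in GSK-J4, 46.1 in BRD4770, 8.43 in DMSO and at most 10.3 in the others. Also on the BRD4770 side were LOX, the lysyl oxidase that cross-links collagen (46.6 and 76.2 FPKM), and CCNG2 (12.7 and 24.3), with differences of -0.70 and -0.88. ERO1L, an oxidase of the endoplasmic reticulum, was at 295 and 154 FPKM, a difference of 0.93. The median of this list lay between 0.14 and 0.40 under every alternative that was run, and the lowest of those values came with BIX-01294 alone as the 12 h reference.

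All 24 glycolysis genes were kept. Against DMSO, 20 were higher by at least 1 in GSK-J4 and 19 in BRD4770, with medians of 1.67 and 1.41. The pair were the 2 highest of 10 libraries for 19. Over all genes, 8.92% and 5.94% were higher by at least 1, and the pair were the 2 highest for 7.12%. Glycolysis is part of the pattern for which the pair was chosen, so nothing is read from these counts either. Glucose enters through the transporter SLC2A1, which was at 265 FPKM in GSK-J4, 179.8 in BRD4770, 29.1 in DMSO and 20.7 to 52.96 in the others. HK2, the hexokinase that commits glucose to the pathway, was at 93.5 FPKM in GSK-J4, 57.4 in BRD4770, 4.65 in DMSO and at most 11.5 in the others. Both genes were far above the remaining 8 libraries. PFKFB4, which makes the activator of phosphofructokinase, was at 62.1, 37.3 and 1.88 FPKM. PGK1 was at 1675, 1071 and 202 FPKM and LDHA at 1699, 1358 and 527. GAPDH was at 10272 FPKM in GSK-J4 and 9824 in BRD4770, against 4603 in DMSO and 3030.3 to 5413 in the others, so this common reference gene made up 2.07% and 2.10% of all FPKM in the pair. PFKM, the muscle-type phosphofructokinase, went the other way in both (13.2, 12.3 and 22.4 FPKM).

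Within the pair, 19 of 24 glycolysis genes were higher in GSK-J4 and 5 were lower, with a median of 0.33. SLC2A3, a high-affinity glucose transporter, was at 94.97 FPKM in GSK-J4 and 26.2 in BRD4770, a difference of 1.82, but BIX-01294 also reached 57.04, above BRD4770. PDK3, a kinase that inhibits pyruvate dehydrogenase, was at 28.8 and 10.99 FPKM, a difference of 1.31, and its relative PDK1 was at 19.8 and 13.9. The lactate exporter SLC16A3 was at 8.94 and 4.16 FPKM, a difference of 0.95. On the BRD4770 side, PFKL, the liver-type phosphofructokinase, was at 38.1 FPKM in GSK-J4 and 72.3 in BRD4770, a difference of -0.90. In GSK-J4 it lay within the range of the other compounds (19.0 to 47.3). ALDOC was at 23.6 and 43.98 FPKM, a difference of -0.87, with 1.51 in DMSO and at most 2.35 in the others. With BIX-01294 alone as the 12 h reference the list median was 0.030, and with 2-PCPA alone 0.67.

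Of the oxygen-sensing genes, the prolyl hydroxylase genes EGLN3 and EGLN1 differed within the pair by more than any of the 35 HIF targets. EGLN3 was at 48.3 FPKM in GSK-J4, 10.04 in BRD4770 and 2.35 in DMSO, and at 0.339 to 4.06 in the others. EGLN1 was at 154 FPKM in GSK-J4, 40.2 in BRD4770, 11.96 in DMSO and 5.85 to 16.05 in the others. The differences of 2.16 and 1.91 were the only 2 past 1 among the 11 genes kept of this list of 12, and in both genes the pair were the 2 highest libraries. EGLN2, which is not a target of the pathway in most cells, was at 23.1, 20.2 and 28.96 FPKM. HIF1A mRNA was lower than in DMSO in both libraries, at 33.5 FPKM in GSK-J4, 42.1 in BRD4770 and 61.9 in DMSO, and the range of the others was 29.9 to 111. EPAS1 was at 30.7, 23.6 and 5.41 FPKM, and SAHA lay between the compounds of the pair at 25.4. VHL was at 35.2, 24.5 and 19.5 FPKM and the ubiquitin ligase SIAH2, which acts on the EGLN enzymes, at 26.7, 16.5 and 7.24. HIF3A was below the filter, at no more than 0.0864 FPKM in any library.

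Metal response genes gave some of the largest differences between the compounds. MT2A was at 16504 FPKM in GSK-J4, 1850.2 in BRD4770, 982 in DMSO, 494 in 2-PCPA, 8671 in BIX-01294, 2208 in GSK343, 2745 in rapamycin, 6448 in SAHA, 2596 in UNC1215 and 1939.8 in VPA. MT1E was at 11962 FPKM in GSK-J4, 406 in BRD4770 and 548 in DMSO, with 4029.5 in BIX-01294. MT1X was at 3699.7 FPKM in GSK-J4, 61.7 in BRD4770 and 78.9 in DMSO, with 1082 in BIX-01294. GSK-J4 was the highest library for all 3 and BIX-01294 the next, while BRD4770 lay within the range of the remaining libraries; the differences between the pair were 3.16, 4.88 and 5.88. MT1G (362.2 FPKM), MT1B (166.7) and MT1H (26.8) in GSK-J4 were listed at 0 in BRD4770 and DMSO. MT1B and MT1H passed the level filter only through GSK-J4, so they had to differ, while MT1G was also at 25.1 FPKM in BIX-01294. MT1A, MT1F, MT1M and MT3 did not pass. MT1A and MT1F were at 1.68 and 4.30 FPKM in GSK-J4 and listed at 0 in BRD4770. Metallothionein genes are near-identical copies, so how reads were divided among them is uncertain, and their sum took 6.61% of all FPKM in GSK-J4, 0.495% in BRD4770 and 0.202% to 2.69% in the others. The zinc exporter SLC30A1, also an MTF1 target, was at 72.4 FPKM in GSK-J4, 13.7 in BRD4770 and 10.5 in DMSO, below the 115 of BIX-01294. SLC30A2, a zinc transporter of vesicles, was at 11.7 FPKM in GSK-J4, listed at 0 in BRD4770 and at 4.26 in BIX-01294. MTF1 itself was at 4.34 and 3.82 FPKM.

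HMOX1, which encodes the heme-degrading enzyme heme oxygenase 1, was at 914 FPKM in GSK-J4 and 23.8 in BRD4770. The other libraries held 15.0 FPKM in DMSO, 136 in 2-PCPA, 138 in BIX-01294, 68.7 in GSK343 and between 12.3 and 35.8 in the other 4. The difference of 5.20 set GSK-J4 apart from every library, and all 3 libraries of 12 h were above all others. HMOX1 is also a target of NRF2, the factor that answers oxidative and electrophilic stress, and of HIF. The other 18 NRF2 targets had a median of 0.39, with 1 higher by at least 1 and none lower. The glutathione synthesis subunit GCLM was at 38.5 FPKM in GSK-J4, 14.3 in BRD4770 and 16.5 in DMSO, a difference of 1.37. The thioredoxin reductase TXNRD1 was at 437, 233 and 141 FPKM, a difference of 0.90, whereas the classical target NQO1 was at 73.2, 43.5 and 73.8. Against DMSO, 5 of the 19 NRF2 targets, HMOX1 included, were higher by at least 1 in GSK-J4 and 0 in BRD4770. Over all genes, 8.92% and 5.94% were. Ferritin heavy chain, FTH1, was at 2648 FPKM in GSK-J4, 1351 in BRD4770 and 1252 in DMSO, and none of the 16 iron-handling genes was past 1 between the pair (median 0.15).

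**Figure D3:**
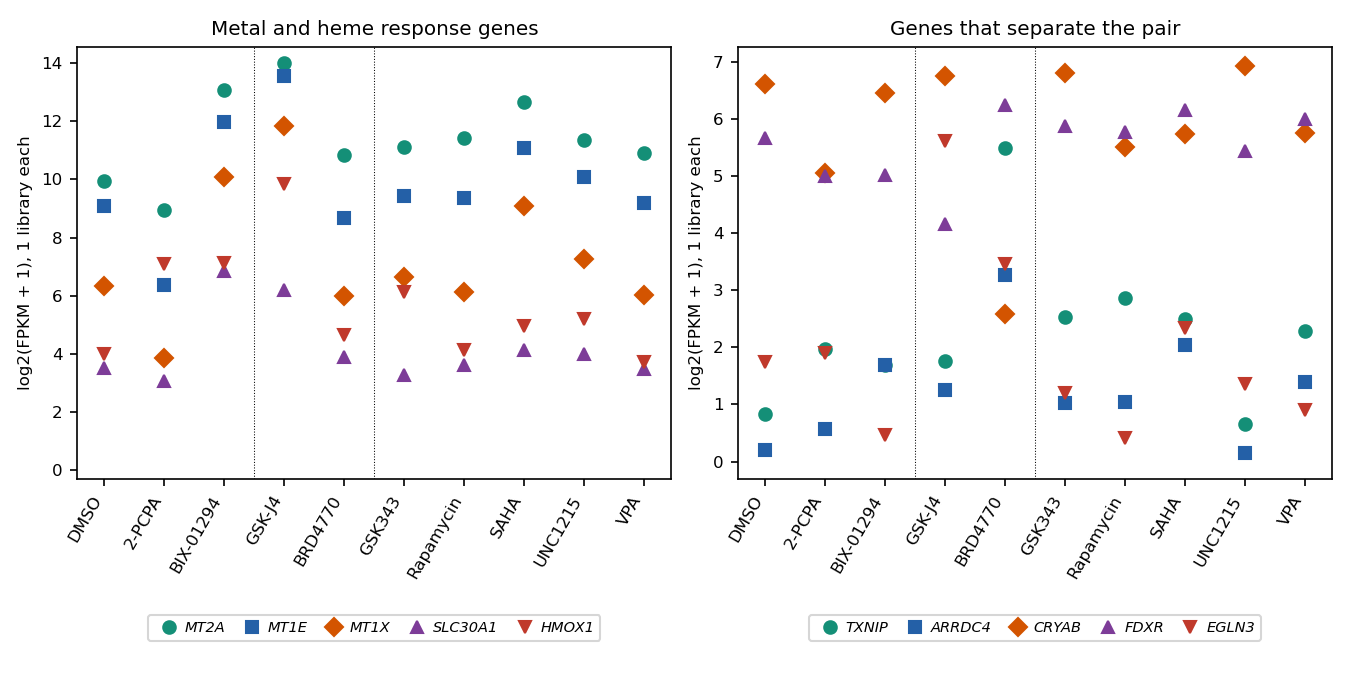
Levels as log2(FPKM + 1) on the y axis in each of the 10 libraries of the table, 1 library per compound, with dotted lines around the pair; metal and heme response genes are on the left and genes that differ within the pair on the right. MT2A, MT1E, MT1X and HMOX1 are highest in GSK-J4, and BRD4770 has the highest TXNIP and ARRDC4 and the lowest CRYAB.

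TXNIP and its relative ARRDC4, arrestin-family proteins that lower glucose uptake and are induced by glucose-sensing factors, were highest in BRD4770. TXNIP was at 2.40 FPKM in GSK-J4, 44.4 in BRD4770, 0.788 in DMSO and 0.574 to 6.32 in the others. ARRDC4 was at 1.38 FPKM in GSK-J4, 8.61 in BRD4770, 0.155 in DMSO and 0.114 to 3.11 in the others. The BRD4770 library was the highest of 10 for both, with differences of -3.74 and -2.01. The other 3 members differed by less than 1, with ARRDC3 higher in GSK-J4 (4.78 and 2.27 FPKM). The list median was -0.19 directly and 0.22 against libraries of the same time, so the median of these 5 genes had no stable direction.

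The small heat shock protein gene CRYAB was low in BRD4770 alone, at 5.02 FPKM, against 107 in GSK-J4, 96.95 in DMSO and 32.3 to 121 in the others. The constitutive chaperone HSPA8 was instead low in GSK-J4, at 247 FPKM against 561 in BRD4770 and 833 in DMSO, although another compound reached as little as 168. These were the only 2 of 12 heat shock genes past 1, one in each direction. The mitochondrial chaperonin pair HSPD1 (402 and 204 FPKM) and HSPE1 (198 and 103) was higher in GSK-J4 by 0.98 and 0.94.

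ATF4 targets, the genes of amino acid supply and of the integrated stress response, were higher in GSK-J4 in the direct comparison. Of 32 kept, 30 were higher and 2 lower, with a median of 0.76, and 5 were higher by at least 1. Over all genes, 52.4% were higher and 4.69% were higher by at least 1. Against DMSO, 23 were higher by at least 1 in GSK-J4 and 9 in BRD4770, where 8.92% and 5.94% of all genes were. The list medians against DMSO were 1.30 and 0.49. TRIB3, a pseudokinase, was at 43.02 FPKM in GSK-J4, 11.2 in BRD4770 and 6.59 in DMSO. CEBPG, a partner of ATF4, was at 126, 48.2 and 40.5 FPKM and NUPR1 at 145, 65.7 and 64.03. For CEBPG and NUPR1, BRD4770 lay near DMSO and GSK-J4 above both. ATF4 itself was at 602, 420.4 and 288 FPKM. BIX-01294, the other compound directed at H3K9 methylation and given for 12 h, held 46.3 FPKM of TRIB3 and 653 of ATF4, above GSK-J4 for both. Against libraries of the same time the list median was -0.30, with TRIB3 at -0.31 and NUPR1 at -0.33. It was -0.42 with BIX-01294 alone as the 12 h reference and 0.09 with 2-PCPA alone, so the direction of this list depended on the reference. In the unfolded protein response list, 2 of 19 genes were past 1: XBP1 at 78.7 FPKM in GSK-J4 and 34.9 in BRD4770, and HERPUD1 at 57.9 and 27.4, around a list median of 0.06.

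Genes of autophagy, the process that rapamycin in this panel is known to induce, differed little as lists. The core list had a median of 0.13 over 32 genes, with 2 higher and 1 lower past 1. GABARAPL1, a ubiquitin-like protein of the autophagosome membrane, was at 175 FPKM in GSK-J4, 69.1 in BRD4770 and 25.7 in DMSO, with 87.8 in BIX-01294. MAP1LC3B, its LC3 relative, was at 170.3, 83.2 and 40.02 FPKM, with 178 in BIX-01294, above GSK-J4. The protease gene ATG4A, at 0.578 and 2.54 FPKM, was the one lower in GSK-J4. Among 14 autophagy receptors (median 0.20), SQSTM1, the ubiquitin-binding receptor p62, was at 165 FPKM in GSK-J4, 67.1 in BRD4770 and 50.2 in DMSO. CCPG1, a receptor for the endoplasmic reticulum, was at 9.79, 26.1 and 11.4 FPKM, high in BRD4770. Among 28 lysosomal genes (median 0.11), the protease cathepsin L, CTSL1, was at 195 FPKM in GSK-J4, 39.2 in BRD4770, 61.9 in DMSO and 52.03 to 68.3 in the others. GSK-J4 was its highest library and BRD4770 its lowest, a difference of 2.28.

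p53 targets were lower in GSK-J4 than in BRD4770 for 17 of 19 genes, with a median of -0.44, 3 past 1 and none higher by 1. Over all genes, 52.4% were higher in GSK-J4 and 3.71% were lower by at least 1. FDXR, a mitochondrial reductase, was at 16.9 FPKM in GSK-J4, 75.4 in BRD4770, 49.9 in DMSO and 31.3 to 70.8 in the others. The pair held the lowest and the highest of its 10 values. TP53I3, an oxidoreductase, was at 24.7, 65.6 and 56.8 FPKM, and the DNA repair gene XPC at 14.4, 32.7 and 19.8. MDM2, the ligase that limits p53, was at 31.8, 62.4 and 32.2 FPKM, a difference of -0.95. CDKN1A, the p21 inhibitor of the cell cycle, did not follow, at 105, 113 and 57.9 FPKM, below the 244 of BIX-01294. Against DMSO, 19 of 19 were above 0 in BRD4770 (2 by at least 1, median 0.58) and 11 of 19 in GSK-J4 (1 higher and 2 lower by at least 1, median 0.13). Over all genes, 5.94% were higher by at least 1 in BRD4770, and 8.92% were higher and 5.96% lower in GSK-J4.

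Replication genes were lower in GSK-J4 for 22 of 25, with a median of -0.45 that became 0.027 against libraries of the same time. Only CCNE1, the S phase cyclin, was past 1, at 27.7 FPKM in GSK-J4, 64.9 in BRD4770 and 37.8 in DMSO. RRM2, a subunit of ribonucleotide reductase, was at 131, 258 and 211 FPKM. Genes of G2 and mitosis were low in both, with none of 24 past 1 between the pair and a median of -0.08. Against DMSO, 12 of 24 were lower by at least 1 in GSK-J4 and 8 in BRD4770, where 5.96% and 4.84% of all genes were. The mitotic kinase PLK1 was at 19.4 FPKM in GSK-J4, 11.6 in BRD4770, 62.2 in DMSO and 42.6 to 73.2 in the others. The anaphase activator CDC20 was at 68.96, 51.3 and 218 FPKM with at least 122 in the others. For 18 of the 24 genes the pair were the 2 lowest of 10 libraries, as for 428 of all genes (3.34%). The latter count rested on the 2-PCPA library, since without it 1073 genes (8.38%) and 21 of the 24 met the rule.

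Cholesterol synthesis genes, which are driven by SREBF2 when sterols are scarce, were low in both libraries and lower in GSK-J4 for 16 of 25 (median -0.27, 3 past 1). Against DMSO, 14 of 25 were lower by at least 1 in GSK-J4 and 9 in BRD4770, where 5.96% and 4.84% of all genes were, with medians of -1.17 and -0.88. The pair were the 2 lowest of 10 libraries for 9 of the 25, as for 3.34% of all genes. Without the 2-PCPA library this held for 10 of the 25 and for 8.38% of all genes. Low values were not particular to the pair. Rapamycin was below both for HMGCS1 (11.5 FPKM, against 12.5 in GSK-J4 and 16.3 in BRD4770) and SQLE (18.1, against 31.1 and 22.8). Mevalonate kinase, MVK, was at 2.82 FPKM in GSK-J4, 8.15 in BRD4770, 15.2 in DMSO and 7.01 to 43.1 in the others. ACAT2, the first enzyme of the route, was at 7.96, 19.2 and 47.5 FPKM, and HSD17B7 at 1.83, 5.26 and 11.1. For these 3 genes GSK-J4 held the lowest of the 10 values. The sterol sensor partner INSIG2, a HIF target that restrains this pathway, was at 35.2, 40.2 and 10.5 FPKM.

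Replication histone genes, whose mRNAs mostly lack a poly(A) tail and are thus poorly sampled by the poly(A) selection used here, were also low in both. Of 25 kept of 67, 17 were lower than DMSO by at least 1 in GSK-J4 and 17 in BRD4770, where 5.96% and 4.84% of all genes were. In the 2 libraries, 13 and 10 of the 25 were listed at 0. HIST1H2AC was at 10.0 FPKM in GSK-J4, 11.8 in BRD4770, 79.2 in DMSO and 22.98 to 122 in the others, and HIST1H2BK at 75.3, 95.1 and 346. In both genes the pair were the 2 lowest libraries. HIST1H2BJ was listed at 0 in GSK-J4 and stood at 11.7 FPKM in BRD4770 and 34.1 in DMSO, and HIST1H2BD was at 6.31, 22.97 and 48.3. Between the pair, 3 were higher and 5 lower past 1, against 4.69% and 3.71% of all genes. The list median of -0.21 became 0.38 against libraries of the same time. Histone genes are near-identical copies, so their single values are uncertain.

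HOX genes, which hold the positional identity of cells and are classical targets of H3K27 methylation, were higher in GSK-J4 for 19 of 24 kept of 39, with a median of 0.64, 6 higher past 1 and none lower. HOXC8 was at 9.17 FPKM in GSK-J4, 2.41 in BRD4770, 5.83 in DMSO and 0.520 to 6.04 in the others. HOXA9 was at 6.56, 2.17 and 3.95 FPKM, with 2.84 to 5.49 in the others. HOXD9 was at 7.45, 2.80 and 4.36 FPKM, inside the range of the other compounds (2.31 to 8.59). For these 3 genes DMSO lay between the compounds of the pair. HOXB9 was at 59.03 FPKM in GSK-J4, 29.6 in BRD4770 and 19.6 in DMSO, and the pair were its 2 highest libraries. Its difference of 0.97 lay just under 1. Against DMSO the list medians had opposite signs, 0.35 in GSK-J4 (4 higher and 0 lower by at least 1) and -0.34 in BRD4770 (2 higher and 2 lower), with the DMSO library shared. Over all genes, 8.92% were higher and 5.96% lower in GSK-J4, and 5.94% and 4.84% in BRD4770, so the BRD4770 counts were near the background.

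Of the enzymes that the compounds are directed at, the transcripts of KDM6A, KDM6B and EHMT1 differed by less than 1 between the pair. KDM6A was at 3.31 FPKM in GSK-J4, 3.85 in BRD4770 and 2.58 in DMSO. KDM6B was at 12.1, 8.47 and 3.42 FPKM, with 37.2 in BIX-01294. It was above DMSO by 1.57 in GSK-J4 and by 1.10 in BRD4770. EHMT1 was at 6.96, 7.79 and 7.64 FPKM. EHMT2 was listed at 0 in all 10 libraries, as was the ribosomal protein gene RPS18, which every cell uses, so nothing can be said of its level. None of 21 JmjC demethylase genes and none of 22 Polycomb and H3K9 enzyme genes was past 1 between the pair (medians 0.23 and 0.18). KDM2B was the demethylase gene with the largest difference (34.99, 22.1 and 9.96 FPKM), and PHF8 followed (15.8, 9.88 and 7.68). KDM3A and KDM4B, both HIF targets, were above DMSO in each compound, with KDM4B at 12.98, 13.2 and 5.12 FPKM.

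BCL2 family genes had a median of 0.54 over 16. Against DMSO, 7 were higher by at least 1 in GSK-J4 and 1 in BRD4770, where 8.92% and 5.94% of all genes were. The 1 in BRD4770 was BCL2A1, which is also among the 7. BCL2A1 passed the level filter only through BRD4770, so nothing is read from its place in these counts. The BH3-only gene HRK was at 5.26 FPKM in GSK-J4, 1.04 in BRD4770 and 0.636 in DMSO, and the pro-survival gene BCL2A1 at 6.24, 16.5 and a listed 0. HRK was higher in GSK-J4 and BCL2A1 in BRD4770, and for BCL2A1 the pair were the 2 highest libraries. BCL2L11, the BH3-only gene for BIM, was at 9.75, 5.01 and 3.12 FPKM. Immediate early genes had a median of -0.11 over 17, with 3 lower in GSK-J4 past 1. EGR1, a growth factor response factor, was at 9.22 FPKM in GSK-J4, 41.4 in BRD4770 and 6.49 in DMSO, with 263 in BIX-01294, and FOS at 1.54, 5.66 and 0.882. Both were higher in BRD4770, inside the range of the other compounds. In the clock list (median -0.22), DBP was at 0.0736, 2.59 and 2.31 FPKM, a difference of -1.74 that became 0.14 against libraries of the same time, and NR1D1 at 6.14, 15.3 and 3.93. Interferon response genes were lower in GSK-J4 for 12 of 13, with a median of -0.28, near the lower quartile of all genes (-0.29). Over all genes, 52.4% were higher in GSK-J4. OAS3 was at 1.67 and 3.67 FPKM. IFI27 was listed at 0 in GSK-J4 and stood at 1.57 FPKM in BRD4770. It is counted in the 12 but passed the level filter only through BRD4770, so nothing is read from its difference.

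**Figure D4:**
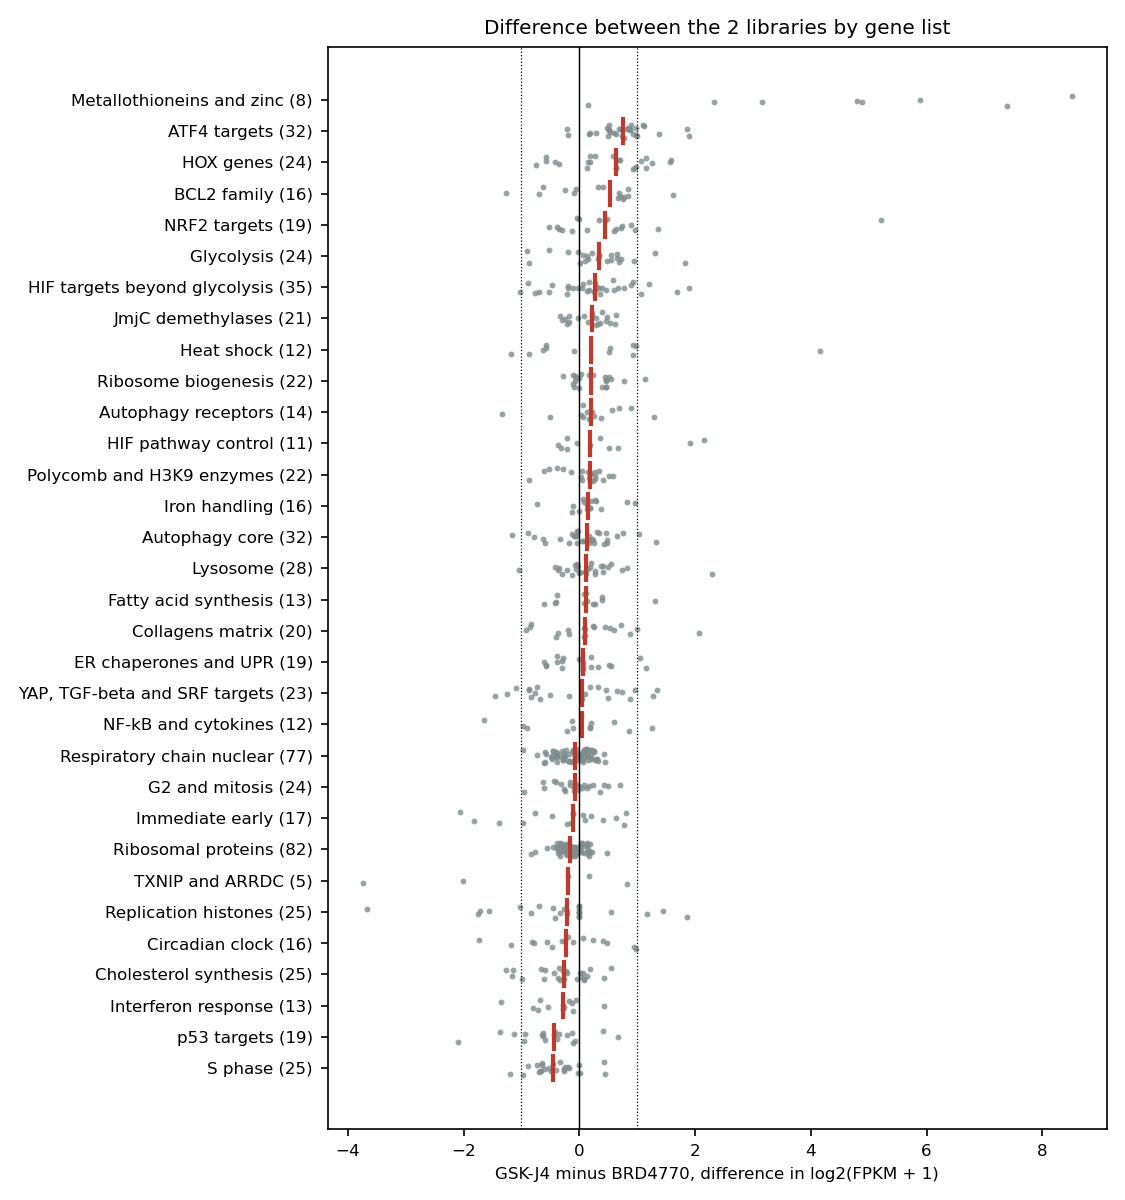
Each grey dot is a gene and the x axis its difference GSK-J4 minus BRD4770 in log2(FPKM + 1), with genes grouped by list, the number kept in brackets, red bars at list medians and dotted lines at -1 and 1. List medians range from -0.45 (S phase) to 0.76 (ATF4 targets), with no bar for the metallothionein and zinc list, whose members include 2 that passed the filter only through GSK-J4.

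Several other lists had medians close to that of all genes or few members past 1. The 77 nuclear genes of the respiratory chain had a median of -0.08 with none past 1, and the 82 ribosomal protein genes a median of -0.15 with none past 1, 63 of them lower in GSK-J4. The latter median was 0.49 against libraries of the same time. Ribosome biogenesis genes had a median of 0.20 over 22, which became -0.13 against libraries of the same time, with NOP16 (48.8 and 21.5 FPKM) past 1. Collagen and matrix genes had a median of 0.10 over 20, with COL3A1 (4.27 FPKM in GSK-J4, 0.251 in BRD4770 and 6.78 in DMSO) past 1. Among 23 targets of YAP, TGF-β and SRF (median 0.05), the actin gene ACTG1 was at 475, 1301 and 1371 FPKM, a difference of -1.45 that became 0.22 against libraries of the same time. NF-κB targets had a median of 0.04 over 12, with IL11 at 5.89 and 20.5 FPKM and the mitochondrial superoxide dismutase SOD2 at 96.9 and 40.1. Fatty acid synthesis genes had a median of 0.11 over 13, with the elongase ELOVL6 at 17.1 and 6.27 FPKM.

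**Figure D5:**
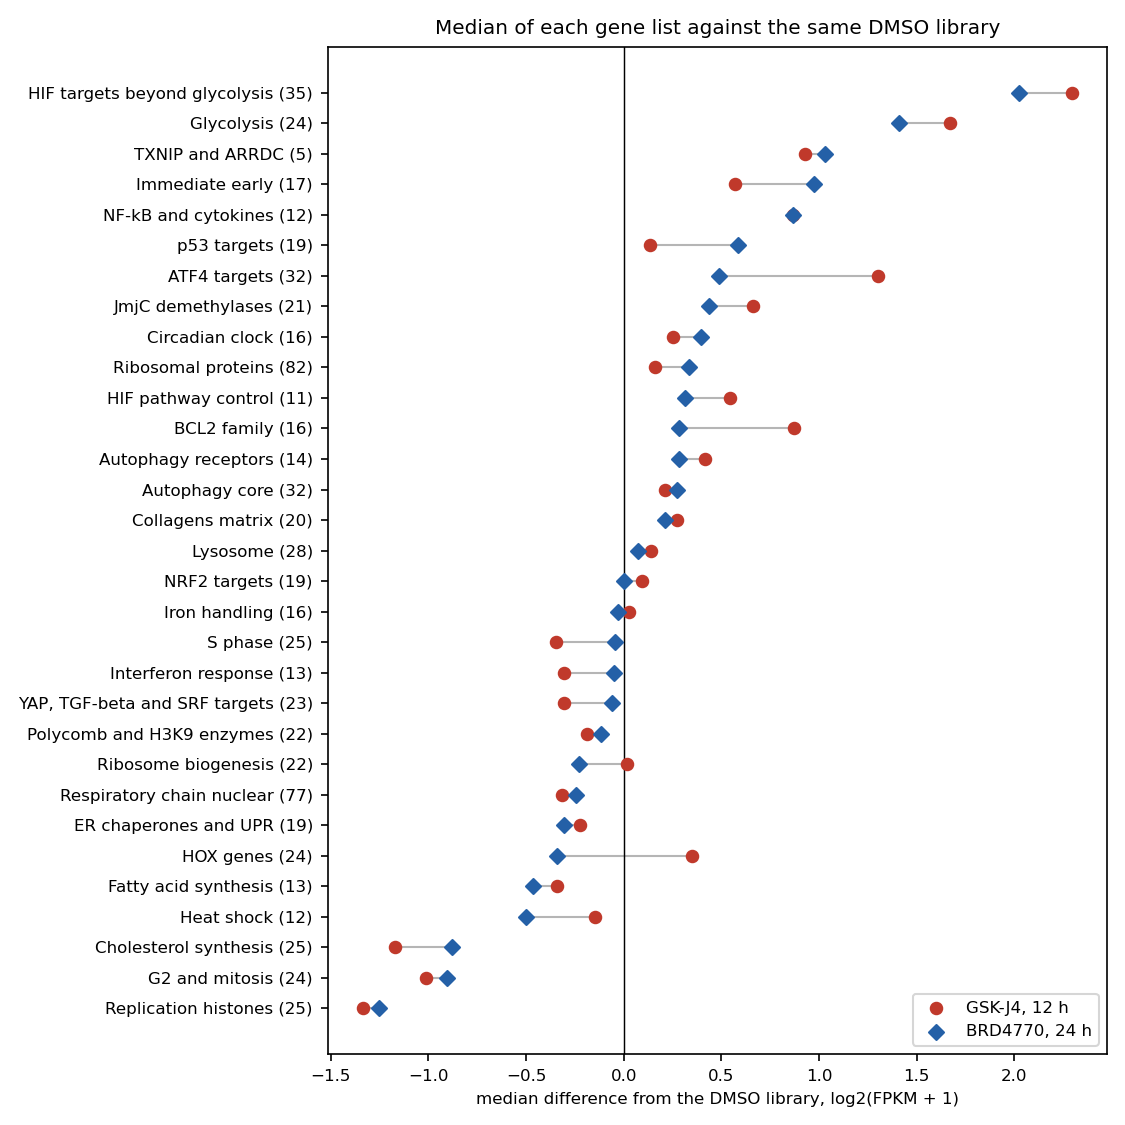
For each gene list, with the number of genes kept in brackets, the x axis gives the median difference from the DMSO library in log2(FPKM + 1) for GSK-J4 (red circles, 12 h) and BRD4770 (blue diamonds, 24 h). Both points share the same DMSO library; HIF targets lie at 2.29 and 2.02, histones at -1.34 and -1.26, and HOX genes at 0.35 and -0.34.

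Other genes with large differences came from no list. On the GSK-J4 side, NPPB, the gene of brain natriuretic peptide, was at 335 FPKM in GSK-J4, 39.6 in BRD4770, 5.98 in DMSO and 1.25 to 19.9 in the others. The pair were its 2 highest libraries and still differed by 3.05. FAM198A was at 14.7, 0.753 and 0.222 FPKM, and the chemokine gene CCL26 at 13.2, 0.991 and 11.2, low in BRD4770. QRFP, a neuropeptide gene, was at 7.95 FPKM in GSK-J4 and listed at 0 in BRD4770 and DMSO. On the BRD4770 side, PI3, the gene of the elastase inhibitor elafin, was listed at 0 in GSK-J4 and stood at 14.2 FPKM in BRD4770 and 0.883 in DMSO. The tetraspanin CD82 was at 3.52, 23.8 and 7.71 FPKM, with 23.9 in SAHA, and GNG2, a G protein γ subunit, at 0.382, 5.72 and 1.22. The neuropeptide gene NMU was at 2.03, 15.1 and 19.2 FPKM, VAMP8, a SNARE protein of vesicle fusion, at 1.34, 10.3 and 12.2, and MNS1 at 0.247, 6.82 and 7.36. For NMU, VAMP8 and MNS1, BRD4770 was near DMSO and GSK-J4 was the lowest of the 10 libraries. TCEAL1 (2.40, 15.8 and 4.78 FPKM) and CCL3 (0.647, 6.43 and 0.489) were instead highest in BRD4770. FAM198A and SLC30A2 passed the level filter only through GSK-J4, and GNG2, CCL3, BCL2A1 and IFI27 only through BRD4770.

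Beyond the hypoxia lists, the pair shared several genes at a distance from DMSO, which both comparisons use. ESM1, an endothelial proteoglycan gene, was at 28.2 FPKM in GSK-J4, 42.4 in BRD4770, 0.431 in DMSO and 0 to 6.78 in the others. SYTL2, a vesicle transport gene, was at 54.9, 45.7 and 3.98 FPKM, and the immune receptor gene SLAMF9 at 29.1, 12.02 and 0.293. The exonuclease gene ISG20 was at 14.5 and 15.9 FPKM and listed at 0 in DMSO, with at most 3.57 in the others. FAM162A was at 381, 193 and 16.8 FPKM. In these 5 genes the pair were the 2 highest libraries. SNURF was far above DMSO in both (22.8, 50.2 and 0.00460 FPKM), but DMSO, rapamycin and BIX-01294 held its only values under 1 FPKM and VPA reached 40.2. SNURF shares its transcript with SNRPN, so its value is uncertain, and its difference of -1.10 within the pair became 1.18 against libraries of the same time. Genes low in both included ZSCAN31 (1.44, 2.42 and 20.5 FPKM), the tRNA methyltransferase TRDMT1 (0.936, 0.589 and 8.79) and the inositol phosphatase IMPA2 (0.907, 1.02 and 6.58). For all 3 the pair were the 2 lowest of the 10 libraries, while EDN2, an endothelin (2.84, 5.07 and 23.1 FPKM), was also low in 2-PCPA and BIX-01294 (4.71 and 4.01).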

How the data were processed

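The deposited tables held FPKM values per gene. Per the submitters' processing notes, the authors used FastQC, cutadapt, TopHat2 and the hg19 build, with no versions. Which program and annotation gave FPKM is not given in the sources used here. A NEBNext module isolated mRNA and a Rubicon ThruPLEX kit with PCR made the libraries, per the labels' protocols. Strand is not stated, which leaves values of antisense, overlapping or nearly identical genes uncertain.

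The table of replicate 1 held 28502 rows for 10 libraries, and 1 row named unknown was left out. The replicate 2 table (25209 rows, 4 libraries) holds neither compound and served only to show how far a difference between single libraries repeats. Tables were not combined. Differences were taken on log2(FPKM + 1) over genes averaging 1 FPKM or more, and a difference of at least 1 was counted. Relative depth came from ratios of values under 0.3 FPKM. The script was checked on simulated data. Python 3.11.15, pandas 2.3.3, numpy 2.4.6 and matplotlib 3.10.9 were used.

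The pair, its members and the 32 gene lists were chosen with earlier results of these data known. Genes were named by rule. These were the 15 largest differences in each direction with at least 5 FPKM in the higher library, the 12 genes in each direction farthest from DMSO in both compounds, up to 6 members of each HIF list, up to 4 of each other list whose median lay at least 0.2 from that of all genes, and 17 genes given in any case. Some genes picked so are not described, for length, and a few list members counted in the totals are not reported here by name. Further list members were named after their values were seen. These were mainly members past 1, chromatin enzymes and the single examples from lists with small medians. Rows of clones, small RNAs and read-through transcripts were passed over, with the pattern widened from 521 to 1034 rows after values were seen. Alternatives were pseudocounts of 0.1 and 5, no filter, a filter at an average of 5 FPKM, median centring, TPM scaling, quantile normalization, leaving out those rows, and each compound relative to the other treated libraries of its time. Using 1 library as the 12 h reference, and leaving out 2-PCPA, were chosen after seeing the data.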

Additional observations from a re-analysis of the deposited data

Results flagged for a closer look

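In 3 named genes the 2 compounds lay on opposite sides of DMSO by at least 1 on the log2 scale, a difference that was not tested because each compound has 1 library. BAGE3 was at -1.21 in GSK-J4 minus DMSO and 1.80 in BRD4770 minus DMSO, with 0.809 FPKM in GSK-J4, 13.5 in BRD4770 and 3.18 in DMSO. DHRS4L2 was at 1.58 and -1.38, with 6.75 FPKM in GSK-J4, a listed 0 in BRD4770 and 1.599 in DMSO. RPPH1, the RNA component of RNase P, was at -1.75 and 1.29, with a listed 0 in GSK-J4, 7.24 FPKM in BRD4770 and 2.36 in DMSO. BAGE3 and DHRS4L2 have near-identical relatives, so their values are uncertain. The 7 other compounds ranged from 1.75 to 9.01 FPKM for BAGE3, from 0.648 to 9.84 for DHRS4L2 and from 0 to 5.11 for RPPH1.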

How the results depend on the processing

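With 601 genes higher and 475 lower in GSK-J4, the counts were 941 and 812 with a pseudocount of 0.1, 192 and 117 with 5, and 289 and 245 with a mean of at least 5 FPKM, where fewer genes enter. With each compound set against other libraries of its time, 1643 were higher and the 547 lower were within 1.5 times the main count. With BIX-01294 alone at 12 h they were 1568 and 1562, and with 2-PCPA alone 2542 and 316. Leaving out clone rows (485 and 372), no filter (773 and 623), median centring (577 and 499), quantile normalization (543 and 521) and TPM scaling (503 and 551) kept both within 1.5 times. Of 1076 genes past 1, the same genes past 1 in the same direction numbered 309 with a pseudocount of 5, 978 with TPM scaling and 688 against libraries of the same time, where 53 changed sign. With BIX-01294 alone they numbered 622, with 125 changed in sign, and with 2-PCPA alone 709, with 63 changed.

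The HIF target median, 0.27 as reported, was 0.29 with a pseudocount of 0.1, 0.23 with 5, 0.28 with the higher filter, 0.25 with median centring, 0.22 with quantile normalization, 0.19 with TPM scaling, 0.29 against the same time, 0.14 with BIX-01294 alone and 0.40 with 2-PCPA alone. The glycolysis median, 0.33, was 0.32 with the higher filter, 0.31 with median centring, 0.35 with quantile normalization, 0.25 with TPM scaling, 0.31 against the same time, 0.030 with BIX-01294 alone and 0.67 with 2-PCPA alone.

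Against libraries of the same time, list medians changed sign for ATF4 targets (-0.30, and -0.42 with BIX-01294 alone), S phase (0.027), ribosome biogenesis (-0.13), TXNIP and ARRDC (0.22), ribosomal proteins (0.49) and histones (0.38). So did ACTG1 (0.22), DBP (0.14), HIST2H2BE (0.28), NUPR1 (-0.33), SNURF (1.18) and TRIB3 (-0.31). Beyond that reference swap, the cause was not tested. Among the alternatives run for every list and named gene, no other reversed a list median of at least 0.1 or a named gene past 1. The references of 1 library were run only for the counts and for the HIF, glycolysis and ATF4 medians. No paired analysis was possible because each compound has 1 library in 1 table, and for the same reason no library of the pair could be left out. FPKM values give no counting error, so differences of genes of a few FPKM have no stated precision.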
